A study of Mus musculus with 8 samples.

Results

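The livers of untreated mice that carry a Cyp7a1 transgene were compared with the livers of untreated wild-type mice. The comparison uses 4 of the 8 RNA sequencing libraries of the series, 2 transgenic and 2 wild type, and it was made across 10441 of the 17294 features with a value. A feature is a gene name of the deposited table, or a group of names that share identical values, and it was tested if it reached 1 FPKM in at least 2 of the 4 libraries. FPKM is a count of sequenced fragments relative to the length of the transcript and to all mapped fragments of the library. All mice were male and of strain C57Bl/6J. The wild-type animals received no treatment. The transgenic animals, of genotype ApoE-Cyp7a1 transgenic, also received none, and the series describes the transgene as liver specific. The other 4 libraries came from mice of the same 2 genotypes given LPS, a bacterial endotoxin, by daily injection at 1.5 mg/kg over 7 days. The main comparison leaves them out. Their values are set beside the untreated ones, and they enter some alternative fits and the genotype comparison under LPS. They also enter a test of whether the genotype difference changes with LPS. The series names the 2 libraries of a group biological replicates. The sources used here give no ages, batches or dates, and they do not name the species of the transgene, so the Cyp7a1 row may not hold the whole of its transcript. RNA came from whole liver that was frozen and pulverized, and in such bulk samples fewer cells of a type and less RNA per cell cannot be told apart.

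Cyp7a1 encodes the hydroxylase that sets the pace of the classical route from cholesterol to bile acids. Hepatocytes obtain cholesterol by making it, through the mevalonate pathway and then the steps from squalene onwards, or by taking up lipoproteins. When sterol in the endoplasmic reticulum is low, SCAP carries the membrane-bound transcription factor SREBP2 to the Golgi, where proteases free its active part, and the genes of cholesterol synthesis and uptake are switched on. INSIG proteins hold the complex back when sterol is plentiful. Bile acids in turn act on the nuclear receptor FXR, the product of Nr1h4, which through SHP, the product of Nr0b2, and through intestinal FGF15 lowers Cyp7a1 and Cyp8b1.

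Between the untreated genotypes 29 features passed the test, a moderated linear model in limma on log2(FPKM + 1) with a Benjamini-Hochberg adjusted p under 0.05. Of these, 25 rose in transgenic liver, which is 0.239% of the features tested, and 4 fell, which is 0.0383%. An unadjusted p under 0.05 was reached by 502 features. Of the 25 that rose, 13 are genes of cholesterol synthesis, in the mevalonate arm or in the steps from squalene to cholesterol, and 3 more are regulators or targets of SREBP2. Both transgenic libraries lay above both wild-type libraries for 14.7% of all tested features and below them for 14.5%, so with 2 libraries a group the absence of overlap alone is common. The median difference over all tested features was -0.0035 on the log2 scale. Outside the pancreatic enzyme genes, 61 features lay at least 1 log2 unit higher and 59 at least 1 log2 unit lower in transgenic liver with no overlap between the groups. Leaving out 1 library at a time moved the cholesterol synthesis genes Hmgcs1 between 4.18 and 4.31 and Hsd17b7 between 1.84 and 2.38 on the log2 scale. Such fits leave 1 library in a group, so their calls cannot test whether the 29 hold. In a fit to all 8 libraries 7 passed, with 3 of the 29 and 0 of the 13 cholesterol genes, and with no filter on low values 6 passed, with 5 of the 13.

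**Figure D1:**
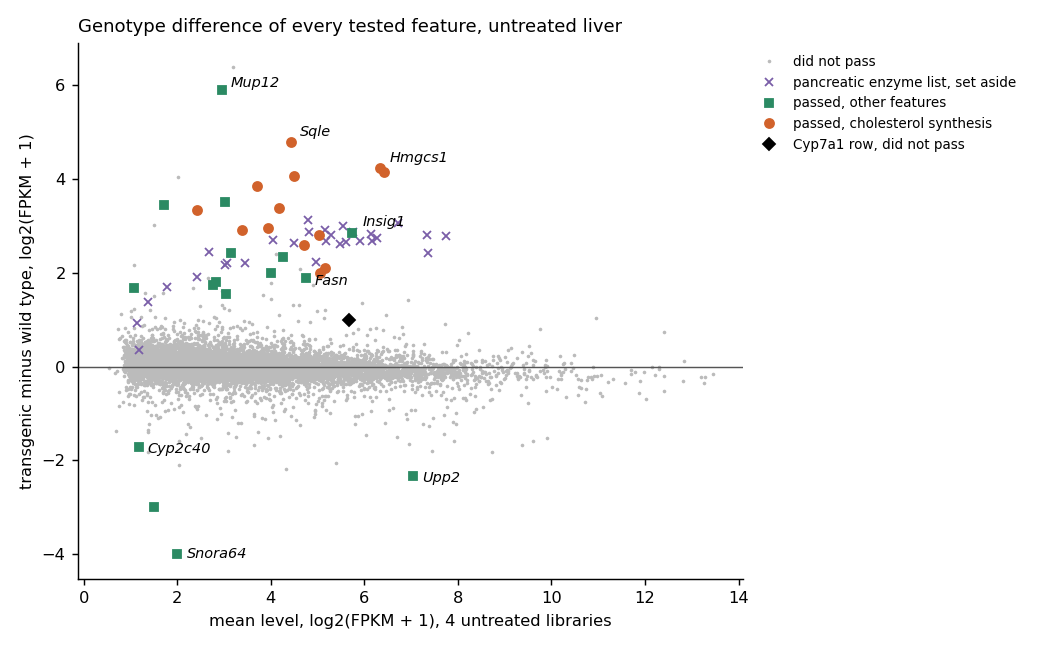
Each point is 1 of the 10441 tested features, with its mean log2(FPKM + 1) over the 4 untreated libraries on the horizontal axis and the transgenic minus wild-type difference on the vertical axis. Circles and squares mark the 29 features that passed, crosses the pancreatic enzyme genes that were set aside, and the diamond the Cyp7a1 row; the 13 cholesterol synthesis genes that passed lie between 2.01 and 4.80 on the log2 scale.

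FPKM values summed to 580051 and 543010 in the wild-type libraries and to 525200 and 500765 in the transgenic libraries, so both transgenic sums were lower, and their part in the results was not tested. Read depth is unknown. Transcripts of pancreatic enzymes, which are not made by liver cells, had library medians of 50.9 and 2.89 FPKM over 28 genes in wild type and of 196 and 43.1 FPKM in transgenic liver, and these genes are set aside below. Removing these genes before the fit left the values of every other feature unchanged. All 29 features passed again, but for that reason this fit cannot test the part of pancreatic tissue. Replicate 1 of wild type and replicate 2 of transgenic liver were near each other in these transcripts. They had 17.2 and 336 FPKM of the cholesterol synthesis gene Hmgcs1, and whether pancreatic tissue bears on the differences was not tested. Replicate 2 of wild type stood somewhat apart. It correlated across genes with replicate 1 of its own group at r = 0.965, and with replicates 1 and 2 of transgenic liver at r = 0.954 and 0.971. The 2 transgenic libraries correlated with each other at r = 0.985 and with replicate 1 of wild type at r = 0.981 and 0.975. The SD of the log2 difference between replicates was 0.491 in wild type and 0.311 in transgenic liver. Hepatocyte markers were at high levels in all 4 libraries, with summed FPKM of 53935 and 44738 in wild type and 42909 and 38859 in transgenic liver over 21 genes, although Alb, the albumin gene, is listed at 0 in every library of the table. Markers of 3 other tissues or cell types varied within groups more than between them. Adipocyte markers summed to 108 and 27.3 FPKM in wild type and 42.1 and 15.8 in transgenic liver. Muscle markers summed to 1.43 and 90.7 FPKM against 58 and 11, and MHC class II genes to 138 and 47.6 against 124 and 60.5.

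Cyp7a1 itself, on chromosome 4 from 6265612 to 6275633 in GRCm38, was measured at 24.9 and 49.1 FPKM in the 2 wild-type livers and at 64.7 and 78.5 FPKM in the 2 transgenic livers. Both transgenic values lay above both wild-type values, and the means were 37.0 ± 17.1 and 71.6 ± 9.78 FPKM (SD, n = 2 each), a ratio of 1.93. The difference of 1.00 on the log2 scale (SE 0.34, 95% interval 0.16 to 1.84) did not pass (adjusted p = 0.885), and the wild-type values lay further apart than the transgenic values. Leaving out 1 library at a time moved it between 0.53 and 1.48. Apoe, the gene named in the genotype label, was measured at 17080 and 8215 FPKM in wild type and at 12377 and 9064 FPKM in transgenic liver, and the groups overlapped.

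Enzymes that make cholesterol rose in transgenic liver. In the mevalonate arm, which leads from acetyl-CoA to farnesyl pyrophosphate, 5 of 8 tested genes rose, and in the steps from squalene to cholesterol 8 of 12 rose. None fell. The median difference was 2.75 and 2.45 on the log2 scale, against -0.0035 over all features. Together the 20 genes summed to 495 and 439 FPKM in the wild-type livers and to 2201 and 1946 FPKM in the transgenic livers. Among the 13 that rose, the ratio of the group means ran from 4.17 for Dhcr7 to 36.4 for Sqle, with a median of 12.5.

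**Figure D2:**
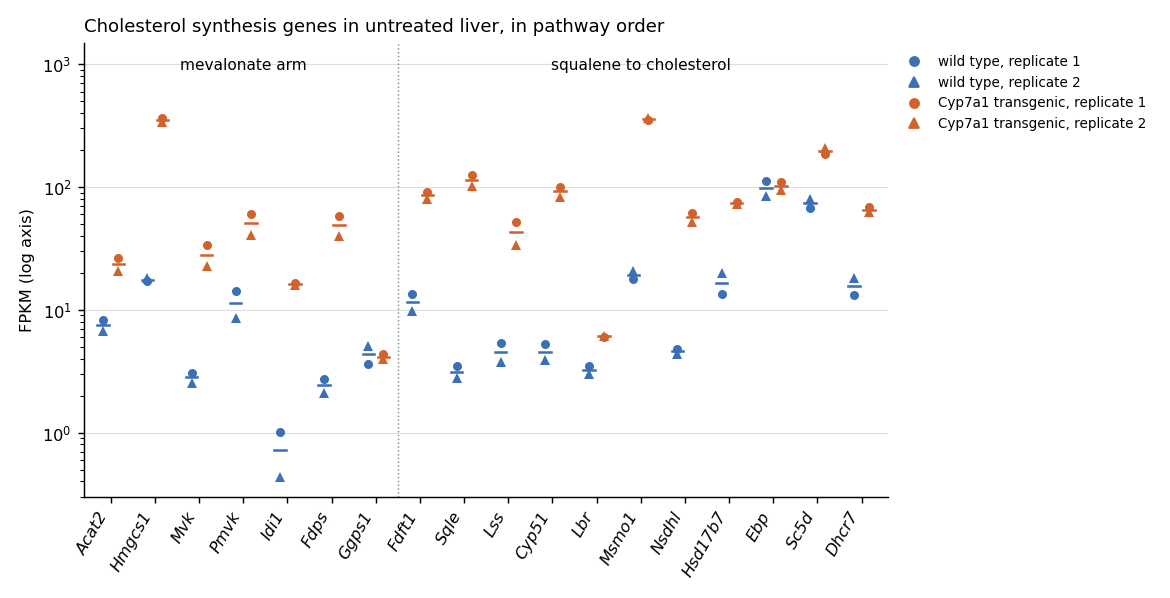
FPKM on a log axis for 18 of the 20 tested genes of cholesterol synthesis in pathway order, with 1 symbol per untreated library and a bar at the mean of each genotype. The transgenic libraries lie above the wild-type libraries for 16 of the 18 genes shown, with overlap for Ggps1 and Ebp.

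Hmgcs1, the cytosolic synthase that makes HMG-CoA, was measured at 17.2 and 18.1 FPKM in wild type and at 368 and 336 FPKM in transgenic liver. This gene, on chromosome 13 from 119690379 to 119708260, rose by 4.24 on the log2 scale (SE 0.16, adjusted p = 0.00248), a ratio of 20.0 between the means. The replicates within each genotype were close, and the smallest ratio between any transgenic and any wild-type liver was 18.6. Mvk, which encodes mevalonate kinase, had 3.08 and 2.55 FPKM against 33.6 and 22.6 FPKM and rose by 2.91 (adjusted p = 0.0189). Idi1, which isomerizes isopentenyl pyrophosphate, was barely measured in wild type at 1.01 and 0.432 FPKM and reached 16.4 and 15.8 FPKM in transgenic liver. It rose by 3.33 (adjusted p = 0.00951). Fdps, the farnesyl pyrophosphate synthase, went from 2.75 and 2.1 FPKM to 58.5 and 40.0 FPKM and rose by 3.86 (adjusted p = 0.00899).

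The remaining genes of this arm gave smaller or less certain differences. Pmvk, the phosphomevalonate kinase, had 14.1 and 8.55 FPKM in wild type and 60.1 and 41.0 FPKM in transgenic liver, with no overlap, but its difference of 2.08 did not pass (adjusted p = 0.147). Acat2, which makes acetoacetyl-CoA in the cytosol, had 8.26 and 6.73 FPKM against 26.2 and 20.9 FPKM (1.53, adjusted p = 0.0969). The values of Mvd, the decarboxylase, stand in the table under a row shared with Cyba and Gm20735, at 9.97 and 4.17 FPKM in wild type and 46.5 and 32.2 FPKM in transgenic liver, and cannot be assigned to one of these genes. Ggps1, which leads away from sterols towards geranylgeranyl groups, was the exception. At 3.65 and 5.03 FPKM in wild type and 4.34 and 3.97 FPKM in transgenic liver its groups overlapped, and its difference was -0.04 (SE 0.19).

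After farnesyl pyrophosphate, Fdft1 makes squalene. Its level was 13.4 and 9.72 FPKM in wild type and 91.9 and 79.3 FPKM in transgenic liver, a rise of 2.80 (SE 0.21, adjusted p = 0.0154). Sqle, the squalene epoxidase and a control point of the pathway, had the largest rise of all cholesterol genes. On chromosome 15 from 59315077 to 59331192, it was measured at 3.47 and 2.78 FPKM in wild type and at 126 and 102 FPKM in transgenic liver, a difference of 4.80 (SE 0.19, adjusted p = 0.00248). Lss closes the sterol rings, and it went from 5.39 and 3.74 FPKM to 51.9 and 33.8 FPKM (2.96, adjusted p = 0.0316).

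The demethylating enzymes that follow also rose. Cyp51, the lanosterol demethylase, had 5.25 and 3.88 FPKM in wild type against 101 and 83.1 FPKM (4.06, adjusted p = 0.00435). Msmo1, the methylsterol monooxygenase, had 17.7 and 20.6 FPKM against 355 and 363 FPKM (4.16, adjusted p = 0.00248). With Hmgcs1 it was the most abundant of the 13 genes in transgenic liver. Nsdhl, which acts with Msmo1, had 4.77 and 4.38 FPKM against 62.0 and 52.3 FPKM (3.38, adjusted p = 0.00435). Hsd17b7, which completes that demethylation, had 13.4 and 19.9 FPKM against 75.0 and 72.5 FPKM and rose by 2.11 (adjusted p = 0.0475). In each of these genes the distance between the genotypes was many times that between replicates.

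The last steps differed less. Dhcr7, the final reductase of one branch, had 13.2 and 18.1 FPKM in wild type and 68.3 and 62.4 FPKM in transgenic liver, a rise of 2.01 (adjusted p = 0.0414). Sc5d, the desaturase, had 67.3 and 79.9 FPKM against 186 and 210 FPKM (1.42, adjusted p = 0.0969). It did not pass, although the groups did not overlap. Lbr, a sterol reductase of the nuclear envelope, had 3.48 and 3.01 FPKM against 6.05 and 6.15 FPKM (0.75, adjusted p = 0.394). Ebp, the sterol isomerase, overlapped at 113 and 84.3 FPKM against 109 and 95 FPKM. The sterol reductase Tm7sf2 shares its row with Vps51, at 80.8 and 49.6 FPKM in wild type and 126 and 94.8 FPKM in transgenic liver.

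One gene that moved with these enzymes lies outside the lists. The row named 0610007P14Rik, the gene now called Erg28, whose product tethers sterol enzymes at the endoplasmic reticulum, had 42.4 and 33.7 FPKM in wild type and 104 and 93.4 FPKM in transgenic liver. Its difference of 1.36 did not pass (adjusted p = 0.134), and it was picked after its values were seen.

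The promoters of 4 of the genes that rose are printed because the genes changed together. They come from RefSeq on GRCm38.p6 and hold the 250 bases before the start of transcription, read 5′ to 3′ on the strand of the gene. Capitals mark CCAAT on either strand (ATTGG on the strand shown), the motif bound by NF-Y, a usual partner of SREBP factors, and TCACNCCAC on either strand, a core of the sterol regulatory element, where N is any base. The 2 motifs do not overlap in these windows. The windows are chr13:119690101-119690350 for Hmgcs1 (plus strand), chr8:64733579-64733828 for Msmo1 (minus strand), chrX:72918271-72918520 for Nsdhl (plus strand) and chr5:114444019-114444268 for Mvk (plus strand).
Hmgcs1: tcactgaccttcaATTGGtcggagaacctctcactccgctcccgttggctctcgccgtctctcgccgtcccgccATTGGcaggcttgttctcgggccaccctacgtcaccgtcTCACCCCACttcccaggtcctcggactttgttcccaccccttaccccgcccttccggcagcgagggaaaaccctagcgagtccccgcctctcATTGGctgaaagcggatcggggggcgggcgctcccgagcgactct
Msmo1: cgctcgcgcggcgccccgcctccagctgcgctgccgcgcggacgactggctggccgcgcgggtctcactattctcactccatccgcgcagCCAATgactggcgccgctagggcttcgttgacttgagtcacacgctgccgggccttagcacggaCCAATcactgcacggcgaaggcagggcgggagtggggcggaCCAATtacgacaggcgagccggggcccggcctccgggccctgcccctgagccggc
Nsdhl: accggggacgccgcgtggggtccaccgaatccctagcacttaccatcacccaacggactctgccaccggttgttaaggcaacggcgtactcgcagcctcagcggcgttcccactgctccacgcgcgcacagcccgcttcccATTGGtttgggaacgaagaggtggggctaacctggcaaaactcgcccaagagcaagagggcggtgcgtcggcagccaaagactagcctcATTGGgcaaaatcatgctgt
Mvk: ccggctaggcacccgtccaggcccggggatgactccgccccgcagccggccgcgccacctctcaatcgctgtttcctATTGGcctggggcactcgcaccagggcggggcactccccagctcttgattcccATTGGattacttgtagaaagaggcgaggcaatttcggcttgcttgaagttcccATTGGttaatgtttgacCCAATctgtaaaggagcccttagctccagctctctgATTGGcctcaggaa

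Hmgcs1 and Msmo1 hold 3 copies of CCAAT each, Nsdhl 2 and Mvk 5. In the window of Mvk the 4 copies on the minus strand stand exactly 53 bases apart. Of all 32851 RefSeq promoter windows of this length, 33.8% hold at least 1 copy and 10.1% at least 2. Of the 18 windows that were found for 15 of the tested cholesterol synthesis genes, 14 hold CCAAT and 10 hold it at least 2 times. Of the 11 windows of 9 genes that rose, 9 hold it. The stricter motif TCACNCCAC occurs in 1.05% of all windows and in 1 of the 18, that of Hmgcs1, where it begins 137 bases before the start. These are letter matches in a short window and say nothing of binding.

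The gene Mmab, which makes the adenosyl form of vitamin B12, lies head to head with Mvk. Its RefSeq start lies 242 bases from that of Mvk on the other strand, inside the window printed above, so both genes share this stretch of promoter. Mmab was measured at 3.22 and 2.47 FPKM in wild type and at 13.4 and 11.4 FPKM in transgenic liver. It rose by 1.81 (SE 0.18, adjusted p = 0.0414), less than Mvk, and has no part in cholesterol synthesis.

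Among the regulators and uptake genes of the SREBP2 system, 3 of 14 tested features rose, none fell, and the median difference was 0.68. Insig1, itself a target of SREBP2 and its brake, had 23.8 and 14.8 FPKM against 154 and 129 FPKM (2.84, adjusted p = 0.0316). Stard4, which carries cholesterol between membranes, had 9.45 and 5.93 FPKM against 42.1 and 42.4 FPKM (2.34, adjusted p = 0.0414).

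Srebf2, the gene of the factor itself, was higher in both transgenic livers without passing. It had 18.2 and 11.5 FPKM in wild type and 40.8 and 34.2 FPKM in transgenic liver (1.31, adjusted p = 0.337), and its wild-type replicates differed by more than 1.5 times. Aacs, which activates acetoacetate for lipid synthesis, had 12.4 and 4.63 FPKM against 34.0 and 24.8 FPKM (1.79, adjusted p = 0.548), and Tmem97, a sterol-responsive membrane protein gene, had 20.6 and 19.8 FPKM against 50.6 and 43.4 FPKM (1.18, adjusted p = 0.146).

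The genes that sense and process SREBP gave small differences with overlapping groups. For Scap, the escort, the difference was -0.06 (SE 0.17), and for the protease gene Mbtps1 it was 0.12 (SE 0.20). The lysosomal cholesterol exporters Npc1 and Npc2 gave -0.03 (SE 0.16) and 0.18 (SE 0.23). Insig2, the second INSIG gene, ranged widely within each genotype, from 162 to 523 FPKM in wild type and from 172 to 369 FPKM in transgenic liver. Mylip, a ubiquitin ligase gene, lay lower at 8.86 and 7.03 FPKM in transgenic liver against 9.93 and 10.5 FPKM, a difference of -0.33 that did not pass (adjusted p = 1).

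Fatty acid synthesis moved in part. Of 18 tested genes of lipogenesis and triglyceride synthesis 1 passed, Fasn, and the list's median was 0.02. Fasn, the fatty acid synthase, had 13.6 and 12.5 FPKM in wild type and 51.6 and 50.2 FPKM in transgenic liver, a rise of 1.88 (SE 0.16, adjusted p = 0.0227). Acly, which supplies cytosolic acetyl-CoA, had 24.7 and 22.6 FPKM against 52.0 and 47.4 FPKM (1.04, adjusted p = 0.192). Other members lay lower: Pparg, a nuclear receptor of lipid storage, had 3.66 and 3.29 FPKM against 1.31 and 0.953 FPKM (-1.07, adjusted p = 0.202), and Lpin1, a phosphatidate phosphatase also raised by fasting, had 206 and 229 FPKM against 107 and 43.9 FPKM (-1.65, adjusted p = 0.618). In all, 7 members lay above and 5 below with no overlap, where 14.7% of all tested features lay above and 14.5% below.

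Of the 8 tested elongases and desaturases, 6 lay above in both transgenic livers and none below, with a median of 0.42, and none passed. The shares over all tested features were 14.7% above and 14.5% below. Fads1, the desaturase gene whose row it shares with Mir6993, had 89.4 and 75.1 FPKM in wild type and 149 and 147 FPKM in transgenic liver (0.84, adjusted p = 0.373). Elovl2, which elongates polyunsaturated fatty acids, had 210 and 220 FPKM against 270 and 327 FPKM (0.46, adjusted p = 0.981). Srebf1, the sister factor of Srebf2 and a target of LXR, had 9.7 and 6.32 FPKM against 15.5 and 15.9 FPKM (0.91, adjusted p = 0.594). The LXR list as a whole had a median of 0.04 over 10 features, with 3 above and 2 below, to be read beside those same shares. Its member Abca1, the sterol exporter, lay slightly lower at 12.3 and 13.8 FPKM in transgenic liver against 15.8 and 18.5 FPKM.

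2 further metabolic features rose. Rdh11, a retinol dehydrogenase gene, had 7.38 and 6.69 FPKM in wild type and 35.3 and 27.2 FPKM in transgenic liver (2.00, adjusted p = 0.0379). Acsl3, an acyl-CoA synthetase gene whose row is shared with Utp14b, had 2.72 and 2.71 FPKM against 11.8 and 11.2 FPKM (1.75, adjusted p = 0.0258). In both rows the replicates of a genotype lay close together. Nfe2, a transcription factor gene known from blood cells, also rose, from 0.174 and 0.172 FPKM to 3.09 and 2.46 FPKM (1.68, adjusted p = 0.0414). Its wild-type level was near the bottom of the measured range, so Nfe2 met the filter only through the transgenic libraries. With no filter its call ended. The red blood cell list had 3 of 5 tested features above and none below, where 14.7% and 14.5% of all tested features did so. Its summed levels were 794 and 749 FPKM in wild type and 985 and 927 FPKM in transgenic liver. Whether this bears on Nfe2 was not tested.

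The rest of bile acid synthesis did not follow Cyp7a1. None of the 15 other tested genes passed. With no overlap 1 lay above and 7 below, and the median was -0.23. The shares over all tested features were 14.7% above and 14.5% below. Hepatocyte markers also leaned lower, with 9 of 21 below, none above and a median of -0.21. The part of that lean here was not tested. Cyp8b1, which hydroxylates the sterol ring to direct synthesis towards cholic acid, was measured at 343 and 505 FPKM in wild type and at 116 and 162 FPKM in transgenic liver. Its difference of -1.59 (SE 0.27) was the largest of the list and did not pass (adjusted p = 0.23). Cyp2c70, the hydroxylase of muricholic acid synthesis, had 73.1 and 97.5 FPKM against 47.2 and 27.0 FPKM (-1.22, adjusted p = 0.618). Cyp27a1, which opens the alternative route, had 380 and 373 FPKM against 245 and 254 FPKM (-0.59, SE 0.16, adjusted p = 0.644). Lower by less were Acox2 (-0.43, SE 0.16) and Akr1d1 (-0.46, SE 0.16), of side-chain and ring processing.

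Other steps were nearly equal between the genotypes. Hsd3b7, the dehydrogenase after Cyp7a1, had 269 and 258 FPKM in wild type and 276 and 267 FPKM in transgenic liver, a difference of 0.05 (SE 0.16). The conjugating enzyme gene Baat gave -0.23 (SE 0.20), and Amacr gave -0.00 (SE 0.16). Cyp7b1, a second enzyme of the alternative route, ranged from 50.8 to 199.8 FPKM within wild type and from 84.2 to 168 FPKM within transgenic liver, so that little can be read from it. Ch25h and Cyp46a1 were under the filter.

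The receptors and the feedback genes gave small differences. Nr1h4 had 79.5 and 88.7 FPKM in wild type and 78.0 and 72.7 FPKM in transgenic liver (-0.15, SE 0.16). Nr0b2, the target of FXR that represses Cyp7a1, had 25.3 and 23.4 FPKM against 29.0 and 27.9 FPKM (0.21, SE 0.16, adjusted p = 1). Neither passed, although the groups of each did not overlap. Fgfr4 and Klb, the hepatic receptor and co-receptor of FGF15, overlapped with differences of -0.05 (SE 0.27) and -0.12 (SE 0.19). Ppargc1a, a coactivator that responds to fasting, lay lower at 1.81 and 1.78 FPKM in transgenic liver against 4.67 and 3.85 FPKM (-0.91, adjusted p = 0.288). The median of the 9 features was -0.12.

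Among 13 tested transporters of bile acids and sterols none passed, and the median was -0.04. The bile salt export pump gene Abcb11 had 65.1 and 71.1 FPKM in wild type and 63.9 and 72.1 FPKM in transgenic liver. Slc10a1, the main uptake carrier, had 646 and 678 FPKM against 613 and 746 FPKM. Both overlapped, with differences of -0.00 (SE 0.17) and 0.03 (SE 0.18). The sterol exporters Abcg5 and Abcg8, which move cholesterol into bile, lay slightly higher: Abcg5 had 52.8 and 39.8 FPKM against 61.7 and 60.7 FPKM (0.41, SE 0.20), and Abcg8 differed by 0.19 (SE 0.17). Slc10a2, the intestinal and biliary carrier, lay lower at 4.75 and 3.48 FPKM against 6.59 and 8.16 FPKM (-0.72, adjusted p = 0.718).

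**Figure D3:**
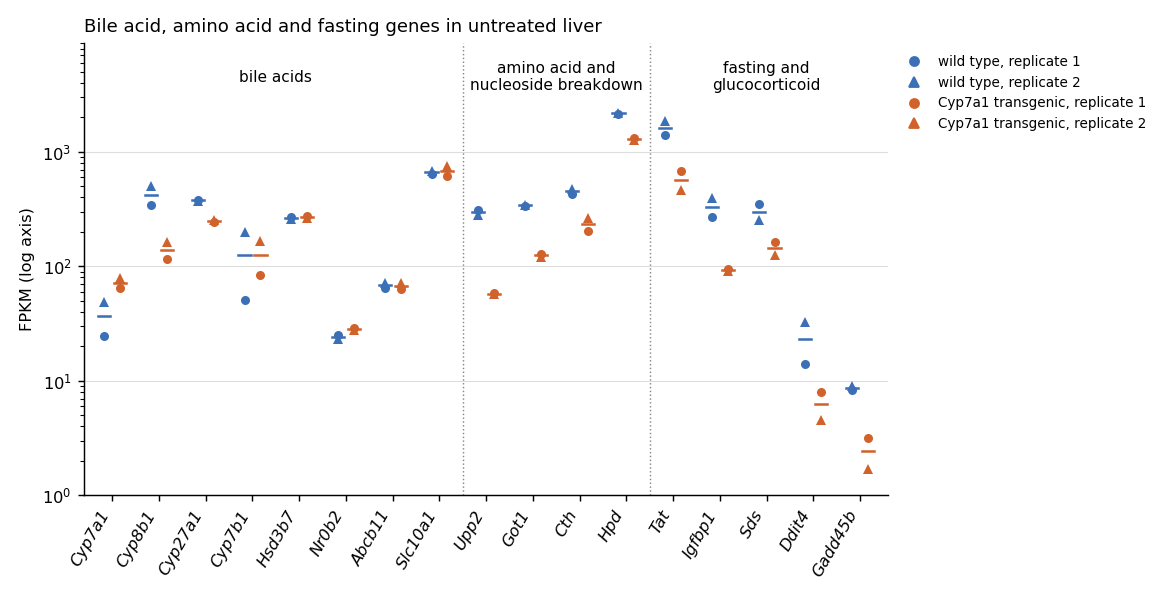
FPKM on a log axis for 17 genes of bile acid handling, amino acid and nucleoside breakdown and the fasting and glucocorticoid list, with 1 symbol per untreated library and a bar at the mean of each genotype. Cyp8b1 and Cyp27a1 lie lower in both transgenic libraries, Hsd3b7 and the transporters lie level, and the amino acid and fasting genes lie lower in both transgenic libraries.

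A second broad pattern was lower levels of genes of amino acid breakdown. Its counts stand beside shares of 14.7% above and 14.5% below over all tested features. Of 27 tested genes of the urea cycle, amino acid and pyrimidine catabolism, 21 lay below in both transgenic livers and none above, with a median of -0.46, and 1 passed. That gene was Upp2, the liver uridine phosphorylase gene, on chromosome 2 from 58567298 to 58792971. It was measured at 313 and 281 FPKM in wild type and at 58.2 and 57.4 FPKM in transgenic liver, a fall of 2.34 on the log2 scale (SE 0.16, adjusted p = 0.012), with a wild-type mean 5.13 times the transgenic mean. Got1, the cytosolic aspartate aminotransferase gene, had 336 and 347 FPKM against 129 and 122 FPKM and just missed the threshold (-1.44, SE 0.16, adjusted p = 0.0541). Cth, of the transsulfuration pathway, had 425 and 479 FPKM against 204 and 263 FPKM (-0.96, adjusted p = 0.373). Hpd, of tyrosine breakdown, had 2144 and 2206 FPKM against 1318 and 1262 FPKM (-0.75, adjusted p = 0.376). Cps1 and Ass1, of the urea cycle, differed by -0.65 (SE 0.24) and -0.69 (SE 0.17).

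Genes raised by fasting and glucocorticoids were lower too. Of 20 tested members 16 lay below in both transgenic livers, none lay above and none passed, and the median of -0.70 was the most negative among the lists with at least 8 tested members. Igfbp1, a secreted protein of the fasted liver, had 269 and 393 FPKM in wild type and 94.9 and 90.6 FPKM in transgenic liver (-1.80, SE 0.23, adjusted p = 0.0969). Tat, the tyrosine aminotransferase gene and a classical glucocorticoid target, had 1403 and 1857 FPKM against 684 and 463 FPKM (-1.52, adjusted p = 0.235). Every transgenic value of these genes lay below every wild-type value. Gadd45b, a stress gene, had 8.24 and 9.09 FPKM against 3.18 and 1.7 FPKM (-1.52, adjusted p = 0.202). Ddit4, an inhibitor of mTOR signalling, had 13.98 and 32.5 FPKM against 7.98 and 4.52 FPKM (-1.67, adjusted p = 0.631). Pck1, of gluconeogenesis, differed by less, with 2052 and 1986 FPKM against 1760 and 1199 FPKM (-0.47, adjusted p = 1). The sources used here name neither the feeding state nor the time of day at collection. The clock list had 4 of 20 features below, where 14.5% of all tested features lay below, and none above, with a median of -0.06. Its members Ciart and Ccrn4l lay lowest relative to wild type, at 10.7 and 6.89 FPKM against 20.8 and 18.6, and at 7.24 and 4.16 FPKM against 15.9 and 12.3.

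**Figure D4:**
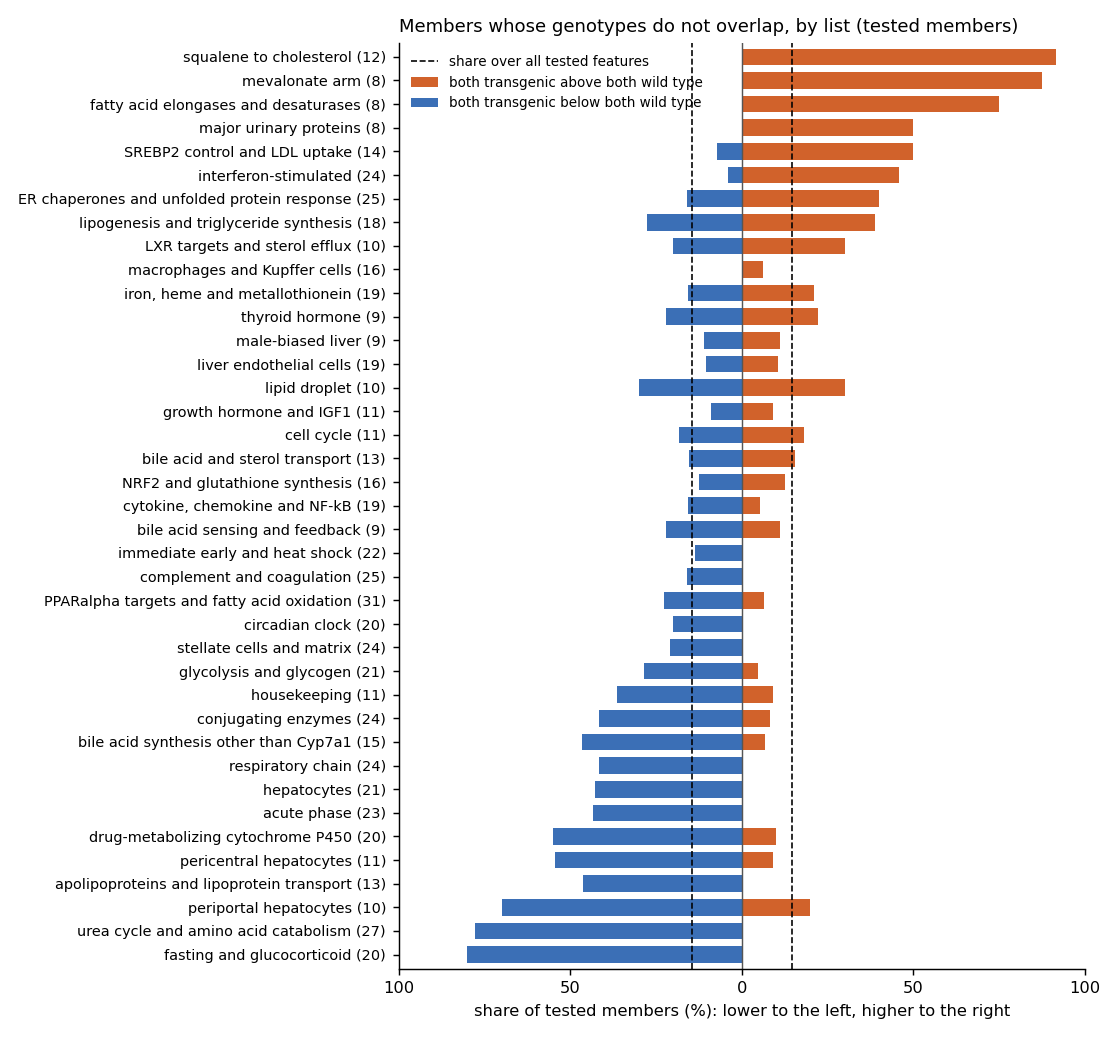
For each list with at least 8 tested members, bars give the share of members whose 2 transgenic libraries both lie above (right) or below (left) both wild-type libraries, and dashed lines give those shares over all tested features, 14.7% and 14.5%. Both cholesterol synthesis lists stand at the top, with 11 of 12 and 7 of 8 members above, and the fasting list at the foot, with 16 of 20 below.

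Several other hepatocyte lists leaned lower without single genes passing in most of them. Over all tested features 14.7% lay above and 14.5% below. Of 20 tested drug-metabolizing cytochrome P450 genes 11 lay below and 2 above, with a median of -0.40. Cyp2c40 fell from 3.51 and 2.75 FPKM to 0.235 and 0.253 FPKM (-1.72, SE 0.17, adjusted p = 0.0414). It met the filter only through the wild-type libraries, and its call ended with no filter. Cyp2c38 had 23.2 and 17.9 FPKM against 7.12 and 7.18 FPKM (-1.39, adjusted p = 0.115). The Cyp2c genes are close copies of each other, so reads may be divided among them and these values are uncertain. Cyp2a5, a coumarin hydroxylase gene, had 556 and 227 FPKM against 173 and 140.1 FPKM, with much of the difference in replicate 1 of wild type. Of 24 conjugating enzymes 10 lay below and 2 above, with a median of -0.19, among them the glutathione transferase gene Gsta2 at 14.2 and 11.9 FPKM in wild type and 3.7 and 4.79 FPKM in transgenic liver (-1.42, adjusted p = 0.115). Outside the lists, the estrogen sulfotransferase gene Sult1e1 had 5.99 and 9.55 FPKM against 1.03 and 0.946 FPKM (-2.11, adjusted p = 0.0546).

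Some of the most certain lower values belonged to no list and did not pass. Fam107a, a stress-responsive actin-binding protein gene, had 11.8 and 18.6 FPKM in wild type and 3.37 and 3.68 FPKM in transgenic liver (-1.81, adjusted p = 0.115). Fam134b, a receptor for the removal of endoplasmic reticulum, had 142 and 213 FPKM against 60.02 and 61.01 FPKM (-1.51, adjusted p = 0.19). Map2k6, a kinase gene of the p38 pathway, had 9.56 and 10.3 FPKM against 4.72 and 4.16 FPKM (-1.01, adjusted p = 0.196), and Glt1d1 had 30.5 and 30.03 FPKM against 14.4 and 13.6 FPKM (-1.06, adjusted p = 0.147). In all 4 genes each transgenic liver had less than 0.5 of the wild-type mean.

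Secreted liver proteins showed the same lean. Beside the counts of this paragraph stand the shares over all tested features, 14.7% above and 14.5% below. Of 23 acute phase genes 10 lay below and none above (median -0.32). Hamp, the iron hormone hepcidin, had 566 and 1128 FPKM against 265 and 189 FPKM, and Serpina3n, a protease inhibitor, had 499.6 and 496 FPKM against 279 and 268 FPKM (-0.86, adjusted p = 0.288). Of 13 apolipoprotein genes 6 lay below and none above (median -0.19), with Apoc1 at 6275 and 6705 FPKM against 4377 and 4603 FPKM (-0.53, adjusted p = 0.774). Of 24 respiratory chain genes 10 lay below and none above (median -0.15). The hepatocyte markers moved in the same direction, with 9 of 21 below, none above and a median of -0.21, as did those of pericentral hepatocytes, with 6 of 11 below, 1 above and a median of -0.30, and of periportal hepatocytes, with 7 of 10 below, 2 above and a median of -0.40. Even in the housekeeping list 4 of 11 lay below and 1 above (median -0.13). The part of the shared lean of hepatocyte genes in each of these lists was not tested.

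Lists that leaned higher outside lipid synthesis were fewer. The counts of this paragraph stand beside shares of 14.7% above and 14.5% below over all tested features. Of 24 interferon-stimulated genes 11 lay above and 1 below, with a median of 0.19, and none passed. Rsad2, an antiviral enzyme gene, had 3.2 and 4.12 FPKM in wild type and 7.0 and 5.92 FPKM in transgenic liver (0.68, adjusted p = 0.654). Of 25 chaperone and unfolded protein response genes 10 lay above and 4 below, with a median of 0.17. Its members went both ways: Sdf2l1, a chaperone cofactor, had 7.88 and 6.13 FPKM against 15.3 and 10.4 FPKM (0.78, adjusted p = 0.774), while Chac1 and Asns, of the amino acid stress response, differed by -1.10 (adjusted p = 0.223) and -1.07 (adjusted p = 0.622). Among fatty acid oxidation and PPARalpha genes 2 of 31 lay above and 7 below (median -0.01), and those 2 above were Fabp1 and Fgf21. Fabp1, the fatty acid binding protein gene, had 5180 and 3378 FPKM against 7508 and 6559 FPKM (0.75, adjusted p = 0.87), and Fgf21, a fasting hormone, had 4.19 and 3.75 FPKM against 13.7 and 9.29 FPKM (1.31, adjusted p = 0.223). Plin2, which coats lipid droplets, had 217 and 244 FPKM against 346 and 411 FPKM (0.71, adjusted p = 0.618). The lipid droplet list to which it belongs went both ways, with 3 of 10 tested features above, 3 below and none passed (median 0.17).

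The remaining metabolic and regulatory lists gave small medians, and none of their genes passed. Their counts stand beside shares of 14.7% above and 14.5% below over all tested features. Glycolysis and glycogen genes had 1 above and 6 below of 21 (median -0.12). The 1 above was Pklr, the liver pyruvate kinase gene, at 48.6 and 54.6 FPKM in wild type and 87.96 and 78.1 FPKM in transgenic liver (0.68, adjusted p = 0.618). Iron, heme and metallothionein genes had 4 above and 3 below of 19 (median -0.03). Mt1, a metallothionein gene, ranged from 827 to 2189 FPKM in wild type and from 245 to 807 FPKM in transgenic liver. Complement and coagulation genes had none above and 4 below of 25 (median -0.12), NRF2 and glutathione genes 2 above and 2 below of 16 (median -0.05), and growth hormone and IGF1 genes 1 above and 1 below of 11 (median 0.02).

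None of the markers of macrophages, stellate cells or endothelium passed. Over all tested features 14.7% lay above and 14.5% below, and the counts of this paragraph are to be read beside those shares. Macrophage markers had 1 of 16 tested features above and none below, with summed levels of 366 and 189 FPKM in wild type and 365 and 239 FPKM in transgenic liver. Stellate cell and matrix genes had none above and 5 of 24 below (399 and 385 FPKM against 379 and 336), and endothelial genes 2 above and 2 below of 19 (285 and 211 FPKM against 249 and 233). Cytokine, chemokine and NF-kB genes had 1 above and 3 below of 19, with a median of -0.09, and cell cycle genes 2 above and 2 below of 11. None of 10 T and NK cell markers and 2 of 11 neutrophil markers reached the filter: the first summed to at most 3.58 FPKM in any of the 4 libraries, and the second to at most 9.58 FPKM.

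Major urinary protein genes, which are many near-identical copies under hormonal control, varied strongly and are uncertain for that reason. Of 8 tested members 4 lay above and none below, where 14.7% of all tested features lay above and 14.5% below. Mup12 was listed at 0 in both wild-type livers and measured at 38.2 and 89.9 FPKM in transgenic liver, and it passed (5.90, SE 0.40, adjusted p = 0.0107). It met the filter only through the transgenic libraries, and its call ended with no filter. Mup8 and Mup16, likewise listed at 0 in wild type, had 4.54 and 2.67 FPKM and 28.8 and 236 FPKM in transgenic liver. They too met the filter only through the transgenic libraries. The place of Mup12, Mup8 and Mup16 among the members above was thus fixed by the filter. The whole list summed to 6664 and 13221 FPKM in wild type and to 9496 and 13652 FPKM in transgenic liver, so its total differed more between the wild-type replicates than between the genotypes.

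5 more features that passed are short RNAs, rows shared with them, or an unnamed gene model. Snora70 was listed at 0 in wild type and had 9.54 and 10.4 FPKM in transgenic liver. Snora16a and Snora64, at 6.14 and 7.93 FPKM and at 20.5 and 11.1 FPKM in wild type, were listed at 0 in both transgenic livers. Snora70, Snora16a and Snora64 each met the filter only through the genotype where they were measured. These are small nucleolar RNA genes that lie inside introns of longer genes, and in the LPS libraries each alternated between 0 and several FPKM within at least 1 genotype. The row shared by Kansl2, Mir1291 and Snora34 rose from 2.96 and 2.74 FPKM to 24.3 and 15.8 FPKM (2.42, adjusted p = 0.0382), and the gene model Gm15441 from 3.56 and 4.13 FPKM to 12.9 and 13.3 FPKM (1.54, adjusted p = 0.0422). The call of Gm15441 ended in 6 of 16 alternatives, among them quantile normalization and median-of-ratios scaling. With no filter, and in each of the 3 fits that added LPS libraries, the calls of Snora16a and Snora64 ended.

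The LPS libraries, which played no part in the main fit, give the genotype difference in other animals, all of them given LPS. In them an effect of LPS and a difference between animals cannot be told apart. In wild-type livers with LPS the 20 cholesterol synthesis genes summed to 456 and 474 FPKM, near the untreated wild-type sums. In the transgenic livers with LPS they summed to 482 FPKM in replicate 1 and to 1898 FPKM in replicate 2. Over the 13 genes that passed in untreated liver alone, the sums were 108 and 108 FPKM in wild type with LPS and 231 and 1296 FPKM in transgenic liver with LPS, against 1480 and 1317 FPKM in untreated transgenic liver. Replicate 1 thus lay at the wild-type sum over the 20 genes and above it over the 13, and replicate 2 lay near the untreated transgenic livers. Hmgcs1 had 15.5 and 16.9 FPKM in wild type with LPS and 24.6 and 268 FPKM in transgenic liver with LPS. For 16 of the 20 genes replicate 2 had at least 2 times the level of replicate 1. Both transgenic livers with LPS lay above both wild-type livers with LPS for 14 of the 20 genes, where 22.8% of all tested features did so and 30.3% lay below. With that spread no gene passed between the genotypes under LPS (limma, 0 of 11215, with 1785 at an unadjusted p under 0.05). Cyp7a1 itself was similar in both of these livers, at 73.5 and 70.2 FPKM against 19.9 and 27.9 FPKM in wild type with LPS.

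**Figure D5:**
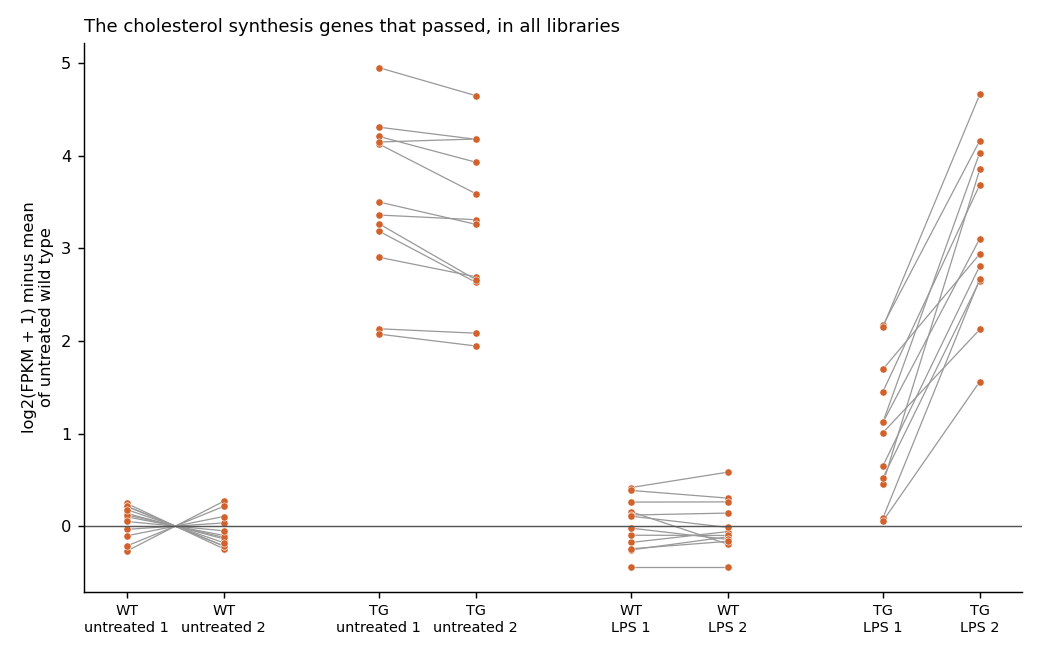
Of the 13 cholesterol synthesis genes that passed in untreated liver, 12 are shown in all 8 libraries, as log2(FPKM + 1) minus the mean of the untreated wild-type libraries, with a line joining the 2 libraries of a group for each gene (WT, wild type; TG, Cyp7a1 transgenic). The genes lie high in both untreated transgenic libraries and in replicate 2 of transgenic with LPS, and low in all wild-type libraries. In replicate 1 of transgenic with LPS genes such as Cyp51 and Hmgcs1 lie between these levels. Dhcr7 lies there within the untreated wild-type range, at 16.1 FPKM against 13.2 and 18.1 FPKM.

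The interaction, the genotype difference with LPS minus that without, was tested over 11463 features in all 8 libraries, and 1 passed, Mup12, which is 0.00872% of them, with 1189 at an unadjusted p under 0.05. Without replicate 2 of transgenic with LPS 279 features passed, without either untreated transgenic library 6, and without any 1 of the wild-type libraries 0. For Hmgcs1 it was -1.97 (SE 1.25, adjusted p = 0.602) and for Sqle -1.74 (adjusted p = 0.553), so a difference between treatments in the cholesterol genes was not detectable against the spread of the transgenic livers with LPS.

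The fasting list took the other direction with LPS, where 22.8% of all tested features lay above and 30.3% below. Of its 20 genes, 14 lay above in both transgenic livers with LPS and none below, with a median of 0.79, and 12 of the 16 that were lower in untreated transgenic liver were among them. Over all features, 463 made that change of direction, which is 30.5% of those lower without LPS and 19.5% of those higher with LPS. Igfbp1 had 99.4 and 166 FPKM in wild type with LPS and 3961 and 364 FPKM in transgenic liver with LPS, and Tat had 632 and 884 FPKM against 2908 and 1388 FPKM. Replicate 1, the transgenic liver with the lower cholesterol genes, held the higher level of both. The interaction was 5.02 for Igfbp1 (adjusted p = 0.41), 2.94 for Tat (adjusted p = 0.285) and 2.76 for Gadd45b (adjusted p = 0.0793), none of which passed. Upp2 lay closer in the genotypes with LPS, at 134 and 176 FPKM in wild type and 122 and 131 FPKM in transgenic liver, and its interaction of 2.06 did not pass (adjusted p = 0.11).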

How the data were processed

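Whole-liver RNA was sequenced after a stranded mRNA library preparation, per the labels' protocols. The authors deposited 1 table of FPKM values with 8 library columns; TopHat2 2.1.0, Bowtie2 2.2.6, Cufflinks, Cuffdiff 2.2.1 and mm10 are named in the submitters' processing notes. The gene annotation, any filters and any scaling of the libraries to each other were not given in the sources used here. Counts of fragments were not analysed here, and no relative depth could be read from the lowest values. Of 24545 rows, 6197 were 0 throughout. For 492 repeated names the value set with the higher sum was kept, 27 names had become dates, and 549 sets of names with identical values were joined. A joined row counted in a list only if all its named genes belonged there.

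The deposited FPKM were transformed as log2(FPKM + 1) and fitted with limma 3.58.1 under R 4.3.3 in the 4 untreated libraries, with 1 mean per genotype, moderation along the mean-variance trend, 2 residual degrees of freedom and a median of 3.52 prior degrees of freedom. Tests were 2-sided and adjusted over all features. "Above" and "below" mean that the 2 libraries of one genotype do not overlap those of the other. Members, lists and tests were chosen with earlier results of these data known. Named features were Cyp7a1, Apoe, the 15 rises and 15 falls with the smallest p among differences of at least 0.58 without overlap, all measured members of the bile acid and sterol lists, and up to 4 members of each other list. A further 11 were chosen after their values were seen: Snora70, Snora16a, Snora64, Gm15441, 0610007P14Rik, Mup8, Mup16, Mmab, Rdh11, Nfe2 and the Kansl2 row. Positions are from GENCODE vM21 (GRCm38, the assembly of mm10). Some members of the lists are counted but not reported here by name. The fit was also run on simulated data with independent noise for each feature and library. That noise holds no deviation shared between libraries, so the run does not test the calls made here. With 2 animals a group, an exact permutation test cannot reach the threshold, so single genes rest on the moderated model alone.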

Additional observations from a re-analysis of the deposited data

Results flagged for a closer look

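Mup12, a major urinary protein gene, was the only feature whose genotype difference changed with LPS by the test of that change itself. The interaction was -6.80 on the log2 scale (limma, adjusted p = 0.0422). In untreated liver Mup12 was listed at 0 in both wild-type libraries and had 38.2 and 89.9 FPKM in the transgenic libraries. With LPS it had 2.76 and 1.66 FPKM in wild type and 0.298 and 1.2 FPKM in transgenic liver. The genes of this family are near-identical copies among which reads may be divided, and their part in the value was not tested.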

How the results depend on the processing

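The count of 29 features past the threshold was 143 with a replicate block, 6 with no filter, 7 with all 8 libraries in the fit, and 41 to 117 when 1 library was left out, the lowest without replicate 2 of wild type. All 29 kept their call, with all 13 cholesterol synthesis genes, in the block and in each of the 4 fits without 1 library. With all 8 libraries 3 of the 29 and 0 of the 13 were kept. When the LPS groups were added except replicate 1 or replicate 2 of transgenic with LPS, alternatives chosen after seeing the data, 44 features passed each time, with 26 of the 29 and 13 of the 13 kept, without Gm15441, Snora16a and Snora64. With no filter 6 of the 29 and 5 of the 13 were kept; the cause was not tested. Quantile normalization and median-of-ratios scaling kept 26 and 27 of the 29 and 12 of the 13. Both ended the calls of Hsd17b7 and Gm15441, and quantile normalization also that of Nfe2. Quantile normalization turned the differences of B2m to 0.10 and of Hspd1 to 0.03, neither of which had passed. Cyp7a1 did not pass in any alternative; its block value had an adjusted p of 0.078. Same-numbered untreated libraries deviated together (r = 0.497), those of other groups less (0.0165 to 0.219), and the labels give no shared litter or day, so the numbers were not taken as pairs.

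The single interaction call became 2 with a replicate block, 0 with no filter and with quantile normalization, and 0 to 279 without 1 library, the highest without replicate 2 of transgenic with LPS. Depth is unknown, 2 animals a group limit every test, and p-values measure only the spread between these livers.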
